A study of Mus musculus with 6 samples.

Results

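The genes described here are Psmb8, Psmb9, Psmb10, Tap1 and Tapbp, which encode the inducible subunits of the immunoproteasome and parts of the machine that loads peptides onto MHC class I. They were chosen by name, for their role, among the 714 genes of the table analysed, and 5 of 5 were in it. That table holds mouse bone marrow-derived macrophages from 3 Senp8+/- and 3 wild-type (WT) C57BL/6 libraries. The Senp8+/- libraries are titled KO, although their genotype label is that of a heterozygote, in which 1 of the alleles is altered. Senp8 encodes an enzyme that removes the ubiquitin-like modifier NEDD8 from proteins. The labels do not say how the allele was made, and Senp8 is not among the listed genes, so the genotypes could not be checked on it. Marrow of both genotypes was grown for 6 days with GM-CSF at 10 ng/ml, all 6 cultures received beads carrying CD47, the ligand of the inhibitory receptor SIRPα, and RNA was taken 24 h afterwards. The labels name no separate animals or cultures, and p-values below therefore rest on a spread between libraries that may be technical.

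The proteasome is a barrel-shaped protease that cuts ubiquitin-tagged proteins into peptides. In cells exposed to interferon, and constitutively in many immune cells, newly built barrels take up PSMB8, PSMB9 and PSMB10 in place of the standard catalytic subunits PSMB5, PSMB6 and PSMB7, which changes the peptides produced. The transporter made of TAP1 and TAP2 moves these peptides into the endoplasmic reticulum, where tapasin, the product of Tapbp, holds empty class I molecules beside the transporter until a peptide fits. Macrophages use the pathway to show fragments of their own and engulfed proteins to CD8 T cells.

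3 of these genes, Psmb9, Tap1 and Psmb8, stand side by side in the MHC region of chromosome 17. In the deposited coordinates, named GRCm38 because they match that annotation, Psmb9 (ENSMUSG00000096727) runs from 34181988 to 34187764 on the minus strand and Tap1 (ENSMUSG00000037321) from 34187553 to 34197225 on the plus strand. Psmb8 (ENSMUSG00000024338) begins 495 bases further on and runs from 34197721 to 34201454. Tapbp (ENSMUSG00000024308) lies in the same region, from 33915899 to 33929288, and Psmb10 (ENSMUSG00000031897) on chromosome 8, from 105935735 to 105938444 on the minus strand. Each value below counts reads over the exons of the whole gene model.

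Psmb9 and Tap1 are read outward from 1 stretch of DNA. Their RefSeq starts are 225 bases apart, and of the 300-base promoter windows (250 bases before the RefSeq start and 50 after it) 275 bases are the same letters read on opposite strands. The Tap1 window is shown because the members on either side of it differed in their pattern over the libraries. Capitals mark a CCAAT box and a GC box.
Tap1, chr17:34187306-34187605, GRCm38.p6, plus strand, RefSeq: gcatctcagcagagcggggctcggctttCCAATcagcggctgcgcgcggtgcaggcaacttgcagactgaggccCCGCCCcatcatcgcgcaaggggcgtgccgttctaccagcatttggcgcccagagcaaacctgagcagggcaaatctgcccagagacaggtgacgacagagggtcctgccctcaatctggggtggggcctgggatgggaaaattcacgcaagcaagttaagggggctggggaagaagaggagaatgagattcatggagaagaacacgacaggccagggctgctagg

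Both strands of the 5 member windows, each found by symbol, were searched for a pair of general promoter boxes. The box CCAAT was in Psmb9 and Tap1, through their shared bases, and at 2 places in Tapbp, against 37.4% of 32841 mouse promoter windows of the same length. The GC box, written GGGCGG, was in the same 3 genes, against 35.7%, and the Psmb8 and Psmb10 windows held neither box. The boxes did not overlap in these windows, and a match or its absence describes only the letters of these windows. Those of Psmb8, Psmb9 and Tapbp lie wholly within the deposited gene coordinates, whose starts differ from the RefSeq starts.

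The table lists only genes that the authors found to differ between the genotypes, with an unadjusted p under 0.05 and an absolute log2 fold change of at least 1, so every member had to differ to be listed. Its values are read counts that the authors scaled for library depth, with size factors of 0.933 to 1.14, and are called normalised counts here. The listed genes hold 205957 to 491156 reads per library, and total depth is unknown here. Of the 714 genes, 569 lay lower and 145 higher in Senp8+/- than in WT. The authors' deposited table gives 242 an adjusted p under 0.05 and a lower value, which is 33.9% of the listed genes and 1.65% of the 14694 genes in the authors' correction. "Fell" is used below for genes that pass that threshold. Because the selection used the same contrast, counts of members are descriptions and nothing is read from them. The p-values from limma below are descriptions too, since its variances were estimated from these selected genes alone.

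The WT libraries differed from each other along transcript length, most in replicate 3 and, in the opposite direction, in replicate 2. Over 196 other listed genes with a mean of at least 100 normalised counts, the median log2 difference between WT replicate 3 and the mean of WT replicates 1 and 2 was -1.01 for the 49 genes with the shortest coding transcripts (415 to 1605 bases). It was 0.83 for the 49 with the longest (4098 to 13172 bases). For WT replicate 3 the Spearman correlation with length was 0.78 across these genes, which are not independent replicates. WT replicate 2, set against the mean of WT replicates 1 and 3, had medians of 0.63 for the shortest and -0.82 for the longest. Those of WT replicate 1 against the other WT libraries were 0.32 and -0.08. Each WT library enters the comparisons of the others, so these medians are not independent. Senp8+/- replicate 3 showed a smaller difference from its own group, opposite in direction to WT replicate 3, with medians of 0.23 for the shortest and -0.34 for the longest. Senp8+/- replicate 1 differed in the direction of WT replicate 3, with medians of -0.10 and 0.43. The members below are therefore given with all libraries and with libraries left out.

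**Figure D1:**
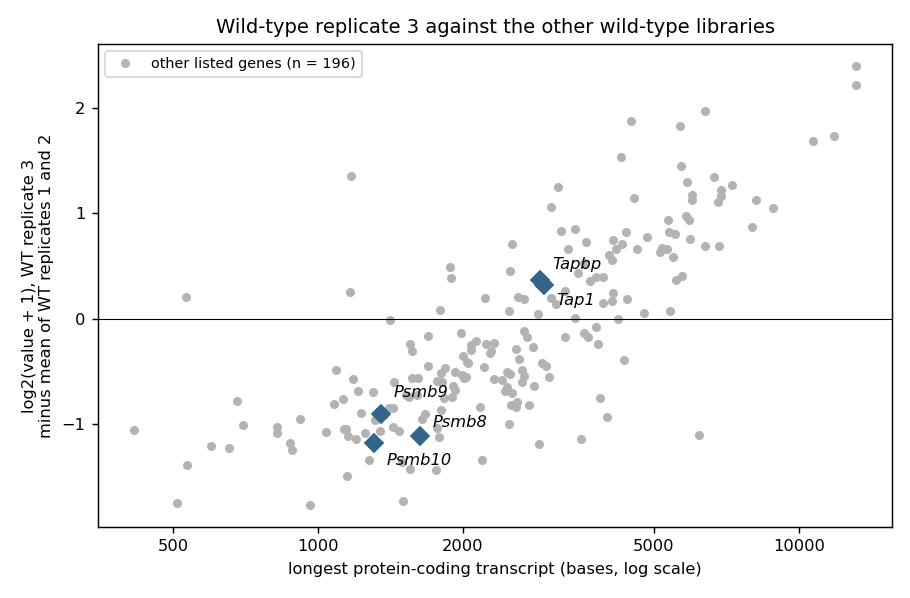
Difference in log2(value + 1) between WT replicate 3 and the mean of WT replicates 1 and 2 (vertical axis) against the length of the longest protein-coding transcript in bases (horizontal axis, log scale) for 196 other listed genes (grey) and the 5 members (blue). Psmb8, Psmb9 and Psmb10 lie between -1.18 and -0.90, and Tap1 and Tapbp lie at 0.32 and 0.37.

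All 5 members were lower in Senp8+/- macrophages, at 43.3% to 49.8% of the WT mean. In the authors' deposited table Tap1, Tapbp and Psmb9 fell, and Psmb8 and Psmb10 did not pass the threshold. The members followed 2 patterns over the libraries. Among WT libraries the immunoproteasome subunits were lowest in replicate 3, whereas Tap1 and Tapbp were lowest in replicate 2. In Tap1 and Tapbp WT replicate 3 was the highest, but only slightly above WT replicate 1. In these bulk samples fewer cells expressing a gene and less of its RNA per cell cannot be told apart.

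Tap1, the subunit of the peptide transporter that pairs with TAP2, had 1901, 1492 and 1592 normalised counts in Senp8+/- replicates 1, 2 and 3, against 4251, 2877 and 4376 in WT replicates 1, 2 and 3. The lowest WT library, replicate 2, still lay 976 above the highest Senp8+/- library. The means were 1662 ± 213 in Senp8+/- and 3835 ± 832 in WT (SD, n = 3 each), and the authors' deposited table gives a log2 fold change of -1.21 with an adjusted p of 2.96e-04. limma, fitted to log2(value + 1) over all listed genes, gave -1.19 ± 0.26 (SE; adjusted p = 0.0485 over 14694 genes). Over 14 alternatives, edgeR and DESeq2 among them, the adjusted p ranged from 0.00681 (DESeq2) to 0.40. The alternatives named here and for the other members all kept the adjustment over 14694 genes. Tap1 was the 1 member past the limma threshold, which 20.9% of listed genes passed on the lower side.

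Tapbp encodes tapasin. It had 7074, 5174 and 5305 normalised counts in Senp8+/- replicates 1, 2 and 3, against 14023, 9192 and 14708 in WT replicates 1, 2 and 3. As for Tap1, WT replicate 2 was the lowest WT library and the genotypes did not overlap. The means were 5851 ± 1061 in Senp8+/- and 12641 ± 3006 in WT (SD, n = 3 each). The log2 fold change in the authors' deposited table was -1.11, with an adjusted p of 0.0045, and limma gave -1.10 ± 0.25 (SE; adjusted p = 0.0628, with 0.027 to 0.534 over the alternatives).

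Psmb9, the inducible counterpart of Psmb6, had 979, 808 and 1154 normalised counts in Senp8+/- replicates 1, 2 and 3, against 2370, 2589 and 1330 in WT replicates 1, 2 and 3. The genotypes did not overlap, but WT replicate 3 lay only 176 above Senp8+/- replicate 3. The means were 980 ± 173 in Senp8+/- and 2096 ± 673 in WT (SD, n = 3 each), and the authors' deposited table gives a log2 fold change of -1.10 with an adjusted p of 0.0272. limma gave -1.05 ± 0.30 (SE; adjusted p = 0.168, with 0.0228 to 0.99 over the alternatives), and -1.35 with an adjusted p of 0.0228 without WT replicate 3.

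Psmb8, the inducible counterpart of Psmb5, had 1990, 1631 and 2446 normalised counts in Senp8+/- replicates 1, 2 and 3, against 5251, 4647 and 2289 in WT replicates 1, 2 and 3. The genotypes overlapped, since WT replicate 3 lay below Senp8+/- replicate 3. The means were 2022 ± 408 in Senp8+/- and 4062 ± 1565 in WT (SD, n = 3 each), and the authors' deposited table gives a log2 fold change of -1.01 with an adjusted p of 0.122. limma gave -0.94 ± 0.32 (SE; adjusted p = 0.334, with 0.0272 to 1 over the alternatives). Without WT replicate 3 the WT mean was 4949, and limma gave -1.31 with an adjusted p of 0.0272.

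Psmb10, the inducible counterpart of Psmb7, had 2447, 1837 and 2819 normalised counts in Senp8+/- replicates 1, 2 and 3, against 5957, 5801 and 2603 in WT replicates 1, 2 and 3. Its pattern was that of Psmb8, with WT replicate 3 below Senp8+/- replicate 3, although the gene is on another chromosome. The means were 2368 ± 495 in Senp8+/- and 4787 ± 1893 in WT (SD, n = 3 each), and the authors' deposited table gives a log2 fold change of -1.02 with an adjusted p of 0.136. limma gave -0.94 ± 0.33 (SE; adjusted p = 0.356, with 0.0263 to 1 over the alternatives), and -1.33 with an adjusted p of 0.0263 without WT replicate 3.

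**Figure D2:**
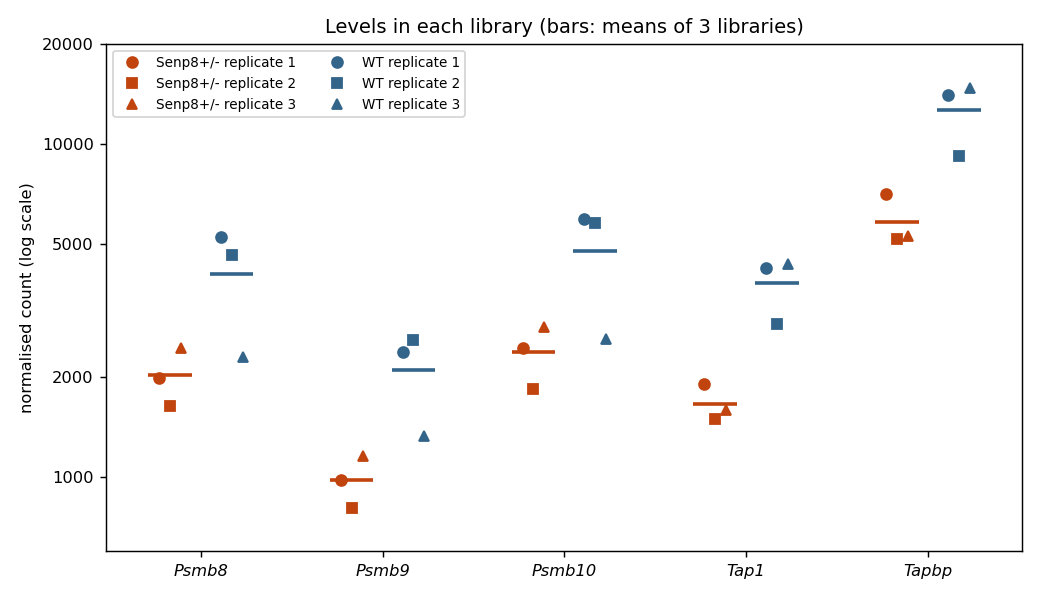
Normalised count (log scale) of each member in the 3 Senp8+/- libraries (red, left of each pair) and the 3 WT libraries (blue), with marker shape giving the replicate and bars the means. In Psmb8 and Psmb10 the WT replicate 3 triangle, at 2289 and 2603, lies below the Senp8+/- replicate 3 triangle, at 2446 and 2819. In Tap1 and Tapbp WT replicate 3 is the highest value, slightly above WT replicate 1, and WT replicate 2 is the lowest WT value.

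Leaving out WT replicate 3 therefore exchanged which members passed the limma threshold. Psmb8, Psmb9 and Psmb10 passed without it, and Tap1 did not, with a log2 fold change of -1.08 and an adjusted p of 0.0675. Senp8+/- then stood at 40.9% of the WT mean for Psmb8, 39.5% for Psmb9 and 40.3% for Psmb10, against 49.8%, 46.8% and 49.5% with all libraries. For Tap1 and Tapbp the share was higher without it, at 46.6% and 50.4%, against 43.3% and 46.3% with all libraries. Without WT replicate 2 the members past the threshold were Tap1 and Tapbp, at -1.38 and -1.31. With both libraries numbered 3 left out, a setting added after the length pattern was seen, Psmb8 passed at -1.45 (adjusted p = 0.0451), and Psmb9 at -1.48 (0.0508) and Psmb10 at -1.47 (0.05003) missed the threshold narrowly. In that setting Tap1 stood at -1.05 (adjusted p = 0.246) and Tapbp at -0.91 (0.417). Without WT replicate 1, or without any Senp8+/- library in turn, no member passed. Each estimate was lower in Senp8+/- under each of these settings.

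**Figure D3:**
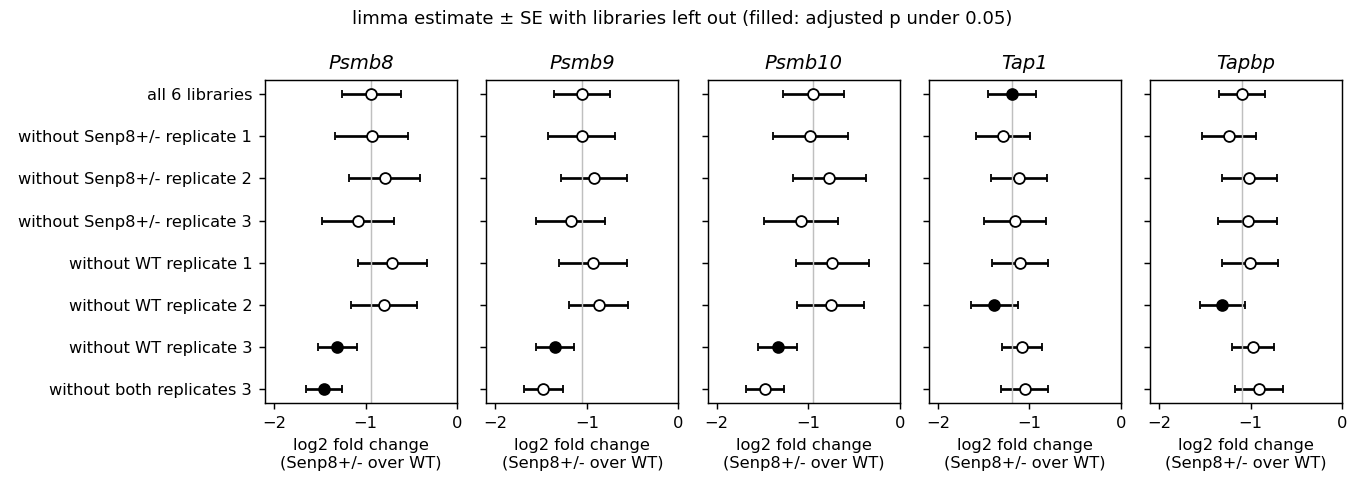
limma log2 fold change, Senp8+/- over WT, with its SE for each member with all 6 libraries and with libraries left out (rows). Filled points have an adjusted p under 0.05 over 14694 genes; the subunits are filled without WT replicate 3, at -1.31, -1.35 and -1.33, and Tap1 and Tapbp without WT replicate 2.

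The coding transcripts of the subunits are short, at 1628 bases for Psmb8, 1352 for Psmb9 and 1311 for Psmb10, and those of Tap1 and Tapbp are 2953 and 2898 bases. WT replicate 3 differed from the mean of WT replicates 1 and 2 by -1.11 in Psmb8, -0.90 in Psmb9 and -1.18 in Psmb10 on the log2 scale. The difference was 0.32 in Tap1 and 0.37 in Tapbp, against a median of -0.13 for the 49 listed genes with coding transcripts of 2516 to 4092 bases. WT replicate 2, the lowest WT library in Tap1 and Tapbp, is part of the mean in this comparison. In Senp8+/- replicate 3 the subunits lay above the mean of Senp8+/- replicates 1 and 2, by 0.37 to 0.44, and Tap1 and Tapbp lay below it, at -0.08 and -0.19. The part of transcript length in the genotype differences was not tested.

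Ratios of members within a library do not depend on the size factor, and they divided the members in the same way. Psmb8 to Psmb10 was 0.813, 0.888 and 0.868 in Senp8+/- replicates 1, 2 and 3, against 0.881, 0.801 and 0.879 in WT replicates 1, 2 and 3. Tap1 to Tapbp was 0.269, 0.288 and 0.300 in Senp8+/- and 0.303, 0.313 and 0.298 in WT, in the same order of replicates. Both ratios stayed within a narrow range in each genotype, and their genotypes overlapped. Over the 6 libraries the highest ratio was 1.11 to 1.29 times the lowest for the 3 pairs of subunits, and 1.16 times for Tap1 to Tapbp. For the 6 pairs of a subunit with Tap1 or Tapbp it was 2.96 to 3.57 times the lowest.

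Psmb9 to Tap1, the genes that share a promoter, was 0.515, 0.542 and 0.725 in Senp8+/- replicates 1, 2 and 3, against 0.558, 0.899817 and 0.304 in WT replicates 1, 2 and 3. WT replicates 2 and 3 held the highest and the lowest ratio, so the Senp8+/- libraries lay within the WT range. On the log2 scale the mean of the subunits minus the mean of Tap1 and Tapbp was -0.90 ± 0.32 in Senp8+/- and -1.07 ± 0.86 in WT (SD, n = 3 each), a difference of 0.16 (two-sided exact permutation test, p = 0.9). None of the 10 ratios separated the genotypes, with exact permutation p from 0.2 to 1 and an adjusted p of 1 over the 10. The smallest p that 3 libraries against 3 allow is 0.1, so these tests could not have passed 0.05 and do not show that the members differed equally.

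**Figure D4:**
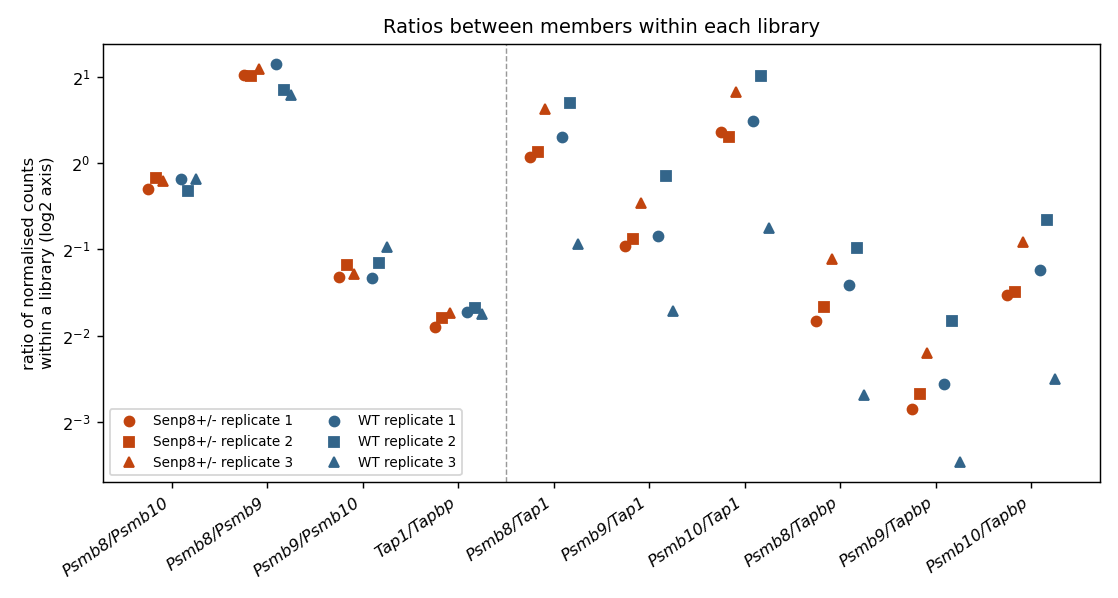
Ratio of normalised counts of each pair of members within a library (vertical axis, log2 scale) in Senp8+/- (red, left of each pair) and WT (blue) libraries, with marker shape giving the replicate. The 4 pairs left of the dashed line, within the subunits and Tap1 to Tapbp, vary by 1.11 to 1.29 times over the 6 libraries, and the 6 to its right by 2.96 to 3.57 times, with WT replicate 3 lowest in each.

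Per kilobase of the deposited gene model, Tapbp had the highest level of the members, at 1775 ± 322 normalised counts in Senp8+/- and 3835 ± 912 in WT. Psmb10 followed at 1389 ± 291 in Senp8+/- and 2808 ± 1110 in WT, then Psmb8 at 739 ± 149 and 1485 ± 572. Tap1 stood at 303 ± 38.9 in Senp8+/- and 700.2 ± 152 in WT, and Psmb9 at 268 ± 47.2 and 573 ± 184 (SD, n = 3 each). The order was the same in both genotypes. The ranges of mean ± SD overlapped between Tapbp and Psmb10 and between Tap1 and Psmb9 in both genotypes, and between Psmb10 and Psmb8 in WT. The deposited Psmb9 model, at 3659 bases, is longer than its coding transcript, and per kilobase of coding transcript Psmb9 stood above Tap1, at 725 against 563 in Senp8+/- and 1550.4 against 1299 in WT.

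Among all listed genes the members were abundant and their differences small. Their median log2 fold change in the authors' deposited table was -1.10, against -1.71 for the 569 listed genes that lay lower, of which 455 had a larger fall than Tap1 and 563 a larger difference than Psmb8. Their median mean level was 3042 normalised counts, against 26.8 for all listed genes. Other listed genes with a mean of at least 100, higher ones included, lay nearer to the members. In their 4 groups of 49 by coding transcript length the median log2 fold change was -1.45 to -1.13. The genotypes did not overlap in 3 of the 5 members, and 70.6% of listed genes lay lower with no overlap.

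**Figure D5:**
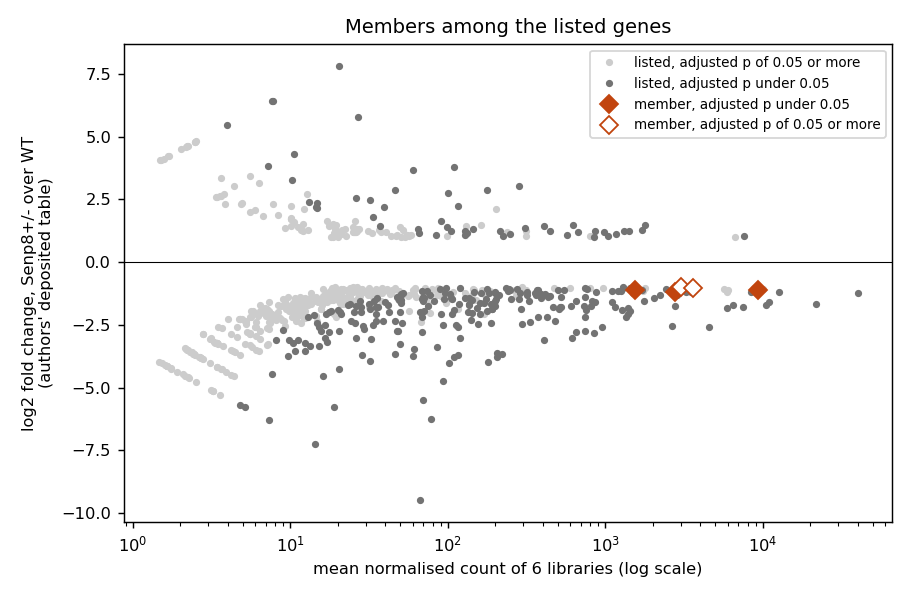
Log2 fold change in the authors' deposited table, Senp8+/- over WT (vertical axis), against the mean normalised count of the 6 libraries (horizontal axis, log scale) for the listed genes, with members as diamonds, filled where the adjusted p is under 0.05. The members lie between -1.21 and -1.01, at the edge of the selection, and at high mean counts.

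Of 45 other proteasome genes (standard catalytic and structural core subunits, regulatory particle, activators, inhibitor and assembly chaperones), 1 was listed. It was Psme2, a subunit of the interferon-inducible proteasome activator. Psme2 had 2490, 1470 and 2159 normalised counts in Senp8+/- replicates 1, 2 and 3, against 5293, 6269 and 1698 in WT replicates 1, 2 and 3. It shared the pattern of the subunits, with WT replicate 3 below 2 of the Senp8+/- libraries, and it was not called (adjusted p = 0.277 in the authors' deposited table). The other 44, among them Psmb5, Psmb6 and Psmb7, were not listed, nor were the other 8 genes of peptide transport and loading, among them Tap2, B2m, Calr and Pdia3. A gene outside the list had a p of 0.05 or more, differed by less than the selection asked, went untested or is among those not used here.

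The listed class I heavy chains were lower as well. Of 15 class I heavy chain genes 6 were listed, and nothing is known here of the rest. All 6 fell in the authors' deposited table, with a median log2 fold change of -2.00. Of all listed genes 33.9% fell, and each had to differ to be listed. Of the 6, H2-Q4, H2-Q6 and H2-Q7 are related genes, whose separate values may be uncertain. How much sequence they share was not measured. H2-K1, a classical heavy chain, had 23883, 21758 and 26553 normalised counts in Senp8+/- replicates 1, 2 and 3, against 61328, 63519 and 42383 in WT replicates 1, 2 and 3. WT replicate 3 was again the lowest WT library, but lay above each Senp8+/- library. Of 15 transcriptional regulators of class I and interferon genes, Irf1, Irf7 and Ciita were listed, and each fell. Irf1, a factor that is known to activate Psmb9 and Tap1, had 2131, 1178 and 1657 normalised counts in Senp8+/- replicates 1, 2 and 3, against 4529, 4020 and 3696 in WT replicates 1, 2 and 3. None of the 10 genes of interferon receptors and ligands was listed, nor was any of the 15 genes of NEDD8 attachment and removal.

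Of 204 other listed genes with a mean of at least 100 normalised counts, Slc16a3, H2-K1, Marcksl1, Irf7 and H2-M3 were those whose pattern over the 6 libraries was nearest to the mean of the members. The root mean square difference between log2 profiles, each centred on its own mean, was 0.04 for Slc16a3, a lactate transporter gene, and 0.134 to 0.161 for the other 4. Slc16a3 had 924, 707 and 922 normalised counts in Senp8+/- replicates 1, 2 and 3, against 2057, 1712 and 1437 in WT replicates 1, 2 and 3. The mean profile of the members averages their 2 patterns and is that of no single member.

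The listed markers of other cells that marrow cultures can hold were lower in Senp8+/- as well, though not all passed the threshold of the authors' deposited table. Of 18 T and NK cell markers 9 were listed, all lower and 6 of them called, and their summed level was 284 to 322 normalised counts in Senp8+/- and 1228 to 1567 in WT, most of it from Ccl5, which macrophages also make. Gzma and Ncr1 were at 0 in each Senp8+/- library. The 2 listed of 12 dendritic cell markers, both called, summed to 177 to 276 in Senp8+/- and 545 to 786 in WT. Most of that sum came from Ccl22, with means of 209 in Senp8+/- and 566 in WT. The 3 listed of 14 neutrophil markers, all called, summed to 358 to 561 in Senp8+/- and 1187 to 1566 in WT, with Retnlg at 0 in each Senp8+/- library. Nearly all of that sum came from Csf3r, with means of 434 in Senp8+/- and 1285 in WT. The 8 listed of 12 stromal markers, of which 3 were called, summed to 389 to 704 in Senp8+/- and 714 to 1764 in WT, and Cd79b, the 1 listed of 8 B cell markers, was not called and stood at 10.7 to 12.4 and 25.3 to 46.5. Their part in the lower levels of the members was not tested. Of 14 macrophage markers C1qa, C1qc, Siglec1 and Marco were listed, all lower, 2 of them called and all detected in each library, so the labelled cell type was checked on these 4 alone.

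Reads over the members can come from other annotated genes that overlap them, and the labels do not say whether the counting kept strand. Psmb9 and Tap1 overlap by 212 bases on opposite strands. The antisense genes Gm20496 and Gm16156 overlap Psmb8 by 2139 and Psmb10 by 2710 bases. Tapbp overlaps Zbtb22 by 3422 bases on the same strand, where keeping strand would not separate them, and the antisense gene Gm19412 by 1207 bases. Of the 31-base words of the longest coding transcript, 0% of those of Psmb10 occur in another gene's transcripts on either strand, 8.14% of those of Psmb8, 13.8% of those of Psmb9, 7.73% of those of Tap1 and 23.9% of those of Tapbp. No such word was shared between any 2 of the 3 subunits.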

How the data were processed

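RNA sequencing of poly(A)-selected RNA gave 3 Senp8+/- and 3 WT libraries, grouped by sample title. HISAT2 2.0.5 and featureCounts 1.5.0-p3 are named in the submitters' processing notes. The sources used here do not give the aligned build, the annotation or the testing tool. The deposited values are a signal, the read counts of each library scaled by its own size factor: 100% were whole multiples of 1 step (tolerance 1e-06), and reads were recovered from them. The authors' deposited table also gives their log2 fold change (Senp8+/- over WT) and p-values, for selected genes only, so its effects are on average overstated. Columns of other samples numbered 0.

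limma 3.58.1 (R 4.3.3, empirical Bayes with trend, genotype only) was fitted to log2(value + 1) over 714 genes, which understates folds of low genes. Benjamini-Hochberg adjustment ran over the 14694 genes implied by the authors' adjusted p-values, and the threshold was 0.05. Only p-values of listed genes could be ranked, and each unlisted gene counted as ranked behind them. Adjusted p-values may therefore be larger than a ranking of all genes would give. That adjustment does not undo the selection of the 714 genes on the same contrast, so SE and p-values of the fits may be too small. edgeR 4.0.16 and DESeq2 1.42.0 were run on the recovered reads as alternatives. Each tool was also run on simulated reads, in which most genes were unchanged and all had the same dispersion. Unlike these, the genes here were selected to differ, so that run does not show how the fits behave on them. Of the gene identifiers 713 were in GENCODE M21, 686 with the same start and end. Promoters came from RefSeq (GRCm38.p6). Transcript lengths are those of the longest protein-coding transcript in M21.

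The members and gene lists were chosen with earlier results of these data known. Named genes are the members, listed genes of the fixed pathway lists and the 5 of most similar pattern. No pair of libraries of a genotype held equal values in more than 5.18% of genes. Protein sequences were not used here. Other motifs that were searched are not reported here.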

Additional observations from a re-analysis of the deposited data

How the results depend on the processing

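Each member was lower in Senp8+/- under each of the 14 alternatives that kept the adjustment over 14694 genes. Which members passed the threshold depended on the setting. With all libraries 1 member passed, against 0 with pseudocounts of 0.5 and 8 and 0 without library scaling. With the replicate number as a block (a replicate block) 0 passed. The labels do not say whether same-numbered libraries were paired. Their deviations from their group means had correlations of 0.01, -0.04 and -0.37 over 545 genes. Those genes were selected on the genotype contrast, so the correlations cannot settle the pairing. With a mean of at least 10 normalised counts, with edgeR and with DESeq2, 2 members passed. Adjusting over the listed genes only, which were selected for a small p, let 5 members and 701 listed genes pass. Leaving out 1 library gave 0 to 3 members and 11 to 181 listed genes, 11 without WT replicate 1 and 37 without Senp8+/- replicate 2, against 176 with all.

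Tap1 no longer passed at -1.19 with either pseudocount, -1.24 without scaling, -1.19 with the replicate block and -1.05 with both libraries numbered 3 left out. Tapbp passed at -1.10 with the mean filter and at -1.11 with edgeR and DESeq2. With both libraries numbered 3 left out, Psmb8 passed at -1.45, Psmb9 and Psmb10 missed the threshold at -1.48 and -1.47, 70 listed genes passed, and the subunits minus Tap1 and Tapbp moved to -0.49. Leaving out 1 library gave -1.31 to -0.71 for Psmb8, -1.35 to -0.87 for Psmb9, -1.33 to -0.74 for Psmb10, -1.38 to -1.08 for Tap1, -1.31 to -0.97 for Tapbp and -0.31 to 0.54 for that difference. The cause of these changes was not tested.

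A scaling by the listed genes was not run, since each was selected for a difference, and the deposited scaling cannot be checked on them. Where 1 library was left out, 2 libraries of a genotype remained. The lowest member value is 808 normalised counts, so counting error limits the members less than the spread between libraries.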

Other observations

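The patterns of the members differed enough that the nearest genes were also sought for each group on its own, a step added after the values were seen. Nearest to the mean of Psmb8, Psmb9 and Psmb10 were C1qa, C1qc, Fcna, H2-DMb1 and Marcksl1, at root mean square log2 differences of 0.123 to 0.152. C1qa and C1qc encode chains of complement C1q and Fcna a ficolin, a lectin that starts complement activation. C1qa had 3119, 3146 and 4698 normalised counts in Senp8+/- replicates 1, 2 and 3, against 9880, 8733 and 4423 in WT replicates 1, 2 and 3, so that WT replicate 3 lay below Senp8+/- replicate 3, as for Psmb8 and Psmb10. The coding transcripts of these 5 genes are 1040 to 1605 bases long.

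Nearest to the mean of Tap1 and Tapbp were Pltp, Itgb7, Zc3h12d, Il21r and Narf, at 0.0961 to 0.132, with coding transcripts of 2226 to 4395 bases. Itgb7, an integrin chain, fell to 1972 ± 312 normalised counts in Senp8+/-, against 4549 ± 591 in WT (SD, n = 3 each; adjusted p = 2.13e-05 in the authors' deposited table). Pltp, a phospholipid transfer protein gene, fell to 2141 ± 363 in Senp8+/-, against 4811 ± 651 in WT (adjusted p = 8.24e-05 in the same table). These 10 genes were picked for their patterns, which are given as a description.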
